A study of Mus musculus with 6 samples.

Results

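The protease-activated receptors and the bradykinin receptors are G-protein-coupled receptors through which proteases and kinins reach sensory neurons. All 6 genes of the set were described, out of 47937 rows of the count table, and were found by matching the Ensembl identifiers of the table to the symbols F2r, F2rl1, F2rl2, F2rl3, Bdkrb1 and Bdkrb2. Of these 6 genes, 5 had at least 10 counts over the 6 libraries and were tested. Bdkrb1 did not reach this minimum. F2rl1 reached it through the control libraries alone.

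The 6 RNA-seq libraries, 3 control and 3 Tlx3cko, were made from dorsal root ganglia (DRGs) of several spinal levels. The mice were C57BL/6 and aged about 2 months. Tlx3cko mice carried the genotype Tlx3f/f;SNS-cre, in which Cre is driven by the Nav1.8 promoter and removes the transcription factor Tlx3 from most nociceptive neurons from late embryonic life onwards. The remaining neurons, glia, vessels and connective tissue of the ganglion do not express this Cre, and their RNA was sequenced along with that of the nociceptors. Controls are labelled wild type. The study's methods call the sequenced animals control mice and name Tlx3F/F littermates as the controls of its behavioural tests, so that the labels and methods leave the Tlx3 alleles of the sequenced controls uncertain.

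A protease-activated receptor (PAR) carries its own ligand. In the general scheme, a protease cuts the extracellular end of the receptor, and the new end folds back and switches the receptor on. Thrombin classically cuts PAR1, PAR3 and PAR4, and trypsin and mast cell tryptase activate PAR2, which is widely studied in itch. Bradykinin acts on the B2 receptor, which is present in healthy nociceptors and sensitizes them to heat, while the B1 receptor prefers kinins shortened by carboxypeptidases and appears mainly after injury or inflammation. Both families signal largely through Gq and phospholipase C beta. Signalling was not measured here for any receptor, PAR3 included.

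The libraries held between 11458299 and 18775628 counts. All 10 general markers of sensory neurons on the list were detected, and 3 of them, the neurofilament genes Nefl, Nefm and Nefh, were called higher in Tlx3cko. Tlx3 itself kept 72.7% of its control level (log2 fold change -0.46, SE 0.09, edgeR adjusted p = 0.0122, where edgeR means its quasi-likelihood test and adjustment was by Benjamini-Hochberg over all genes tested), a call that leaving out a single library removed in 3 of 6 cases and the sex term described next removed too (edgeR adjusted p = 0.223). Control replicates 1 and 2 had Xist counts of 591 and 493 and no Y-linked counts, whereas control replicate 3 and all Tlx3cko libraries had at most 2 Xist counts and between 633 and 1397 Y-linked counts. Genotype and sex were therefore not balanced. For the receptor genes and the named genes of the pathway lists, a call that was lost when a sex term entered the model is given with its adjusted p there, and for neighbouring genes, genes of similar pattern and cell type markers that model is not reported. In that model the genotypes are compared through control replicate 3 alone. Across all 20006 genes tested, 4.25% were called different between the genotypes at an adjusted p under 0.05 (2.56% lower and 1.69% higher in Tlx3cko), and with the sex term 2.43% were called.

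F2rl2, the gene of PAR3, was the most abundant receptor of the set and was lower in Tlx3cko DRGs. Its normalized counts, that is, counts scaled by the TMM method to the mean effective library size, were 1453, 1433 and 1174 in control replicates 1, 2 and 3, and 862.3, 883.1 and 849.3 in Tlx3cko replicates 1, 2 and 3. Every Tlx3cko library was below every control library, and the Tlx3cko libraries lay much closer to each other than the controls did. The means were 1353 ± 156 in control and 864.9 ± 17.1 in Tlx3cko DRGs (SD, n = 3 each), so that 63.9% of the control level remained. The log2 fold change was -0.65 with an SE of 0.10 and a 95% interval from -0.86 to -0.43 (edgeR adjusted p = 0.00174).

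With each library left out in turn, F2rl2 stayed past the threshold in all 6 fits, with log2 fold changes from -0.74 to -0.59 and edgeR adjusted p of at most 0.0132. With the sex term the log2 fold change was -0.44 and the edgeR adjusted p was 0.0743, so the call was lost. Control replicate 3, the only control with Y-linked counts, was the lowest control at 1174, and the Tlx3cko libraries lay between 849.3 and 883.1. Genotype and sex cannot be told apart for F2rl2. Because the tissue was sequenced in bulk, fewer neurons with this transcript and less transcript per neuron cannot be told apart.

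**Figure D1:**
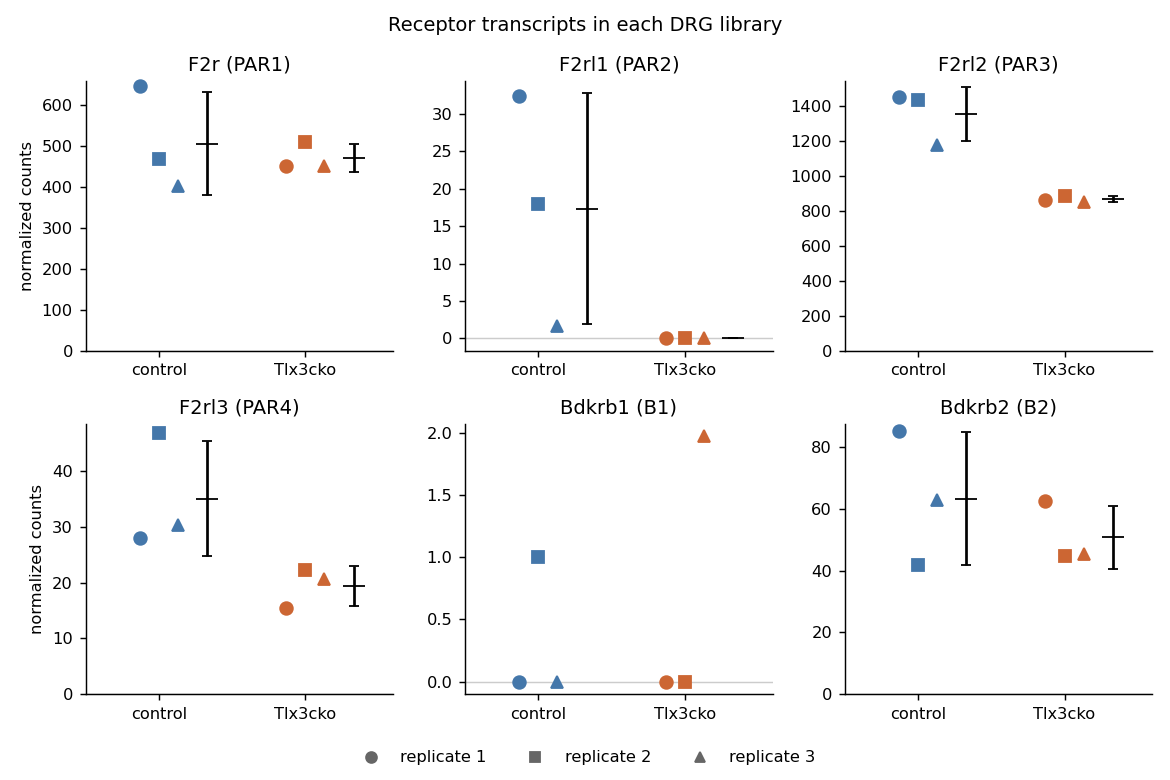
Normalized counts (vertical axes, linear and with a separate scale for each gene) of the 6 receptor genes in the 3 control and 3 Tlx3cko libraries, where each marker shape is a replicate number and the black bar is the mean with its SD (not drawn for Bdkrb1). The 3 Tlx3cko points of F2rl2 lie between 849.3 and 883.1, below the lowest control at 1174, while the points of F2r and Bdkrb2 overlap between the genotypes.

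F2r, which encodes the thrombin receptor PAR1, did not differ detectably. Its normalized counts were 646.5, 469.8 and 402.0 in control replicates 1, 2 and 3 and 452.3, 511.8 and 452.7 in Tlx3cko replicates 1, 2 and 3. The genotypes overlapped, and the highest and the lowest values were both controls. The log2 fold change of -0.10 (SE 0.16, edgeR adjusted p = 0.861) had a 95% interval from -0.43 to 0.24. Its sign was not fixed, being 0.11 without control replicate 1 and 0.23 with the sex term.

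The number of F2rl2 counts per F2r count does not depend on how libraries are scaled. It was 2.25, 3.05 and 2.92 in control replicates 1, 2 and 3 and 1.91, 1.73 and 1.88 in Tlx3cko replicates 1, 2 and 3. The ratio was lower in every Tlx3cko library than in any control (two-sided exact permutation p = 0.1, which is the lowest p that 3 against 3 libraries allow).

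F2rl2 and F2r are neighbours on mouse chromosome 13 (GRCm38), together with F2rl1. F2rl1 lies on the minus strand at chr13:95511732-95525227, F2r on the minus strand at chr13:95601803-95618487 and F2rl2 on the plus strand at chr13:95696853-95702739. Each has 2 exons in the annotation. All exonic bases of F2rl2 (100%) fall inside the body of Iqgap2, a scaffold protein gene on the opposite strand, but 0% of them fall under Iqgap2 exons. The sources used here do not say whether the counting used strand. Without strand, reads of F2rl2 and of the Iqgap2 intron cannot be told apart. Iqgap2 itself held 93, 178 and 176 counts (control replicates 1 to 3) against 136, 73 and 106 (Tlx3cko replicates 1 to 3), fewer than F2rl2 in every library. Its log2 fold change was -0.33 (SE 0.23, edgeR adjusted p = 0.58). The number of F2rl2 counts per Iqgap2 count ran from 8.07 to 14.5 in control and from 6.59 to 9.22 in Tlx3cko libraries, and these ranges overlapped (exact two-sided permutation test, p = 0.5).

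The sequences upstream of F2rl2 and F2r are shown because these genes are neighbours of which F2rl2 was called and F2r was not, and because Tlx3 is a homeodomain protein, a class that often binds sites with the core TAAT. They are RefSeq promoter windows of GRCm38.p6, limited to bases upstream of both the RefSeq and the GENCODE start, 183 bases on the plus strand at chr13:95696670-95696852 for F2rl2 and 229 bases on the minus strand at chr13:95618488-95618716 for F2r. Capitals mark TAAT on either strand.
F2rl2: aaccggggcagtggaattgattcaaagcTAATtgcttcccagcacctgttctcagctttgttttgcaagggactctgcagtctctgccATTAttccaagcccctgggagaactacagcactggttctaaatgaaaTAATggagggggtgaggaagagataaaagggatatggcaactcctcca
F2r: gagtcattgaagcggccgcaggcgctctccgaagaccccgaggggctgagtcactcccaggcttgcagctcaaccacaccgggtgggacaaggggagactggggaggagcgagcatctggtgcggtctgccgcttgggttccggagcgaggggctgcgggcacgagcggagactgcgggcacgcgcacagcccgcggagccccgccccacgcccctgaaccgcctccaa
The F2rl2 window held TAAT 3 times on both strands together, and 12.2% of all 32851 promoter windows cut to the same length held it at least that often (overlapping matches counted). The F2r window held it 0 times, and 53.4% of all windows of its length held it at least once. The windows differed in base composition, with 47.5% G and C for F2rl2 and 70.7% for F2r. A match describes these letters and no binding was measured.

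**Figure D2:**
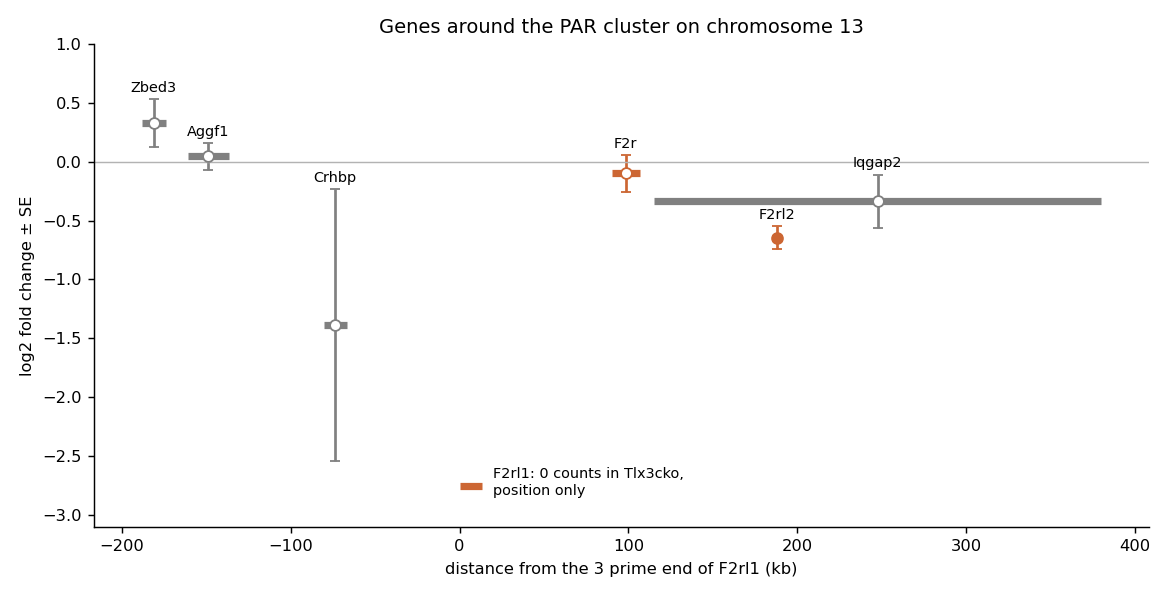
Log2 fold change of the tested genes around the PAR genes on chromosome 13 (vertical axis, with the SE) against the distance from the end of F2rl1 in kb (horizontal axis). Horizontal bars span each gene, filled points passed an adjusted p under 0.05, the PAR genes are in orange, and F2rl1, which had 0 counts in Tlx3cko, is drawn for its position only. Of the genes with a plotted value, F2rl2 alone is filled, at -0.65.

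Within 250 kb of the 6 receptor genes the annotation lists 17 other protein-coding genes, 15 of which were tested. None of them was called lower and 1 was called higher. On chromosome 13, Aggf1 had a log2 fold change of 0.05 (SE 0.11), and Crhbp, with at most 7 counts in any library, had -1.39 (SE 1.15). The gene that was called higher, D430019H16Rik, lies near the kinin receptor genes on chromosome 12 and is described with them.

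F2rl1 encodes PAR2, the receptor for trypsin and tryptase. The study had already reported this transcript as low in control DRGs and markedly lower in Tlx3cko DRGs. Control replicate 1 held 30 counts, control replicate 2 held 18 and control replicate 3 held 2. All 3 Tlx3cko libraries were at 0, a value that is compatible with up to 3 counts per library. The first 2 controls were above this limit and control replicate 3 was not. Measured against that limit as the Tlx3cko level (3.26 normalized counts), the control mean of 17.3 ± 15.4 (SD) gave a difference of at least 5.31-fold lower. This was at least 3.0-fold without control replicate 1, 5.21-fold without control replicate 2 and 7.72-fold without control replicate 3. These bounds cover counting error in the Tlx3cko libraries only and not the spread of the controls. Control replicate 3, at 1.6 normalized counts, lay below the limit, so that against it no fall could be bounded. The gene had entered the test through its control counts alone, so that its call had to point downwards. It passed the threshold over all genes tested (edgeR adjusted p = 0.0378) but lost the call in 5 of the 6 fits that left out 1 library, all except the fit without control replicate 3. With the sex term the edgeR adjusted p was 0.538, and genotype and sex cannot be told apart for F2rl1.

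The peptide SLIGRL-NH2, which mimics the tethered ligand of PAR2, also activates the receptor encoded by Mrgprx1. The study, which names this receptor MrgprC11, had already reported its transcript as significantly higher in these data. By in situ hybridization it also found a larger share of neurons with this transcript in Tlx3cko than in control DRGs. Mrgprx1 measured 226.6 ± 120 (control) and 433.6 ± 60.4 (Tlx3cko) normalized counts (mean ± SD, n = 3 each), with an edgeR adjusted p of 0.0798. It was called in 4 of 14 alternative fits. Among these were the fit without control replicate 1 (edgeR adjusted p = 0.00153) and the fit with the replicate number as a block (edgeR adjusted p = 0.00488). The other 10 did not call it, among them DESeq2 (DESeq2 adjusted p = 0.29) and the sex term (edgeR adjusted p = 0.274).

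F2rl3 encodes PAR4, a further thrombin receptor. It had 28.1, 46.9 and 30.3 normalized counts in control replicates 1, 2 and 3 and 15.4, 22.3 and 20.7 in Tlx3cko replicates 1, 2 and 3. The genotypes did not overlap, with every Tlx3cko library below the lowest control. The log2 fold change was -0.85 (SE 0.37, 95% interval from -1.65 to -0.06), and the gene did not pass the threshold (edgeR adjusted p = 0.298). The study had already reported F2rl3 as markedly lower in these data and listed it as significant by its own test. The direction was the same here, but that call was not repeated. The cause of this difference was not tested. Between 16 and 47 counts per library lie behind these values. The log2 fold change ranged from -0.99 to -0.59 with each library left out and was never called. F2rl3 lies on chromosome 8 (chr8:72761880-72763874), apart from the other PAR genes, and the nearest protein-coding gene, Sin3b, had a log2 fold change of -0.08 (SE 0.10).

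F2rl2 and F2rl3 thus had no overlap between the genotypes, both lower in Tlx3cko, while 10.8% of all genes tested were lower without overlap. The counts of F2rl1 did not overlap either, but control replicate 3 lay within the limit of a count of 0 and the gene could only come out lower, so it adds nothing to that count. In the other direction 8.87% of all genes had no overlap and 0 receptor genes did, and over both directions the share was 19.7%. Of the 5 receptor genes tested, F2rl2 and F2rl1 were called lower (2 genes) and 0 were called higher, beside 2.56% and 1.69% of all genes tested. Neither call was kept with the sex term, and F2rl1 could be called in 1 direction only. The study had already reported F2rl1 and F2rl3 as lower in these data, so their direction here is not independent of that report.

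**Figure D3:**
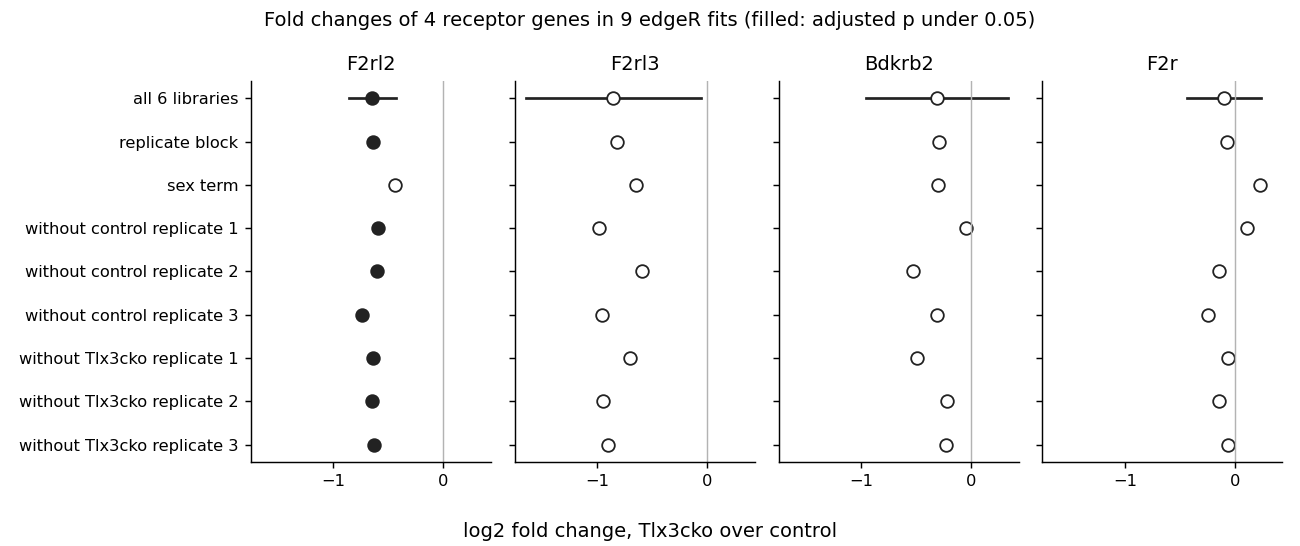
Log2 fold change of Tlx3cko over control (horizontal axis) for F2rl2, F2rl3, Bdkrb2 and F2r in 9 edgeR fits (vertical axis), where filled points passed an adjusted p under 0.05 and the line in the top row is the 95% interval of the fit with all 6 libraries. F2rl2 is filled in 8 of the 9 fits and open with the sex term, at -0.44, and the points of F2r fall on both sides of 0.

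Bdkrb2, the gene of the B2 receptor, did not differ detectably. It had 85.3, 41.9 and 63.0 normalized counts in control replicates 1, 2 and 3 and 62.6, 44.6 and 45.3 in Tlx3cko replicates 1, 2 and 3. The lowest value of all was a control, and the genotypes overlapped. Its log2 fold change was -0.31 ± 0.30 (SE), with a 95% interval from -0.95 to 0.33 (edgeR adjusted p = 0.73), so at this depth a fall by almost 1 log2 unit and a small rise both lie within the interval. The value depended on single controls, with -0.05 without control replicate 1 and -0.53 without control replicate 2.

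Bdkrb1, the gene of the inducible B1 receptor, had 0, 1 and 0 counts in control and 0, 0 and 2 counts in Tlx3cko libraries. All 6 libraries were within the 3 counts that a count of 0 allows, and no comparison was made. Bdkrb2 and Bdkrb1 follow each other on the plus strand of chromosome 12, at chr12:105563226-105595237 and chr12:105603085-105605428. Upstream of them, D430019H16Rik was the 1 neighbour that was called, at 618.3 ± 51.9 (control) and 855.5 ± 71.9 (Tlx3cko) normalized counts (log2 fold change 0.47, SE 0.10, edgeR adjusted p = 0.022). It lies 70.1 kb from Bdkrb2.

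Levels of different genes were compared as normalized counts per kilobase of annotated exon. In control DRGs, F2rl2 stood highest with 540.9 ± 62.2 per kilobase, followed by F2r with 151.7 ± 37.8, F2rl3 with 17.6 ± 5.15, Bdkrb2 with 16.7 ± 5.72 and F2rl1 with 6.32 ± 5.62 (SD, n = 3 each). Bdkrb1 was lowest, with at most 0.695 in a control library. The ranges of F2rl2 and F2r did not overlap each other or those below them. F2rl3 and Bdkrb2 overlapped, as did Bdkrb2 and F2rl1, and F2rl1 and Bdkrb1. In Tlx3cko DRGs the order was F2rl2 with 345.7 ± 6.81, F2r with 141.6 ± 10.3, Bdkrb2 with 13.4 ± 2.68 and F2rl3 with 9.75 ± 1.81 per kilobase. The ranges of Bdkrb2 and F2rl3 met within a narrow gap, from 11.8 upwards for Bdkrb2 and up to 11.2 for F2rl3. With the longest transcript as length, F2rl3 reached 12.7 and the ranges overlapped.

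Genes whose pattern over the 6 libraries was most like that of a receptor were searched among genes whose mean normalized count was 50 or more, by Pearson's r of log2 normalized counts. For F2rl2 these were Cnppd1 (r = 0.993), Insm1 (r = 0.992) and Ttyh3 (r = 0.988). Insm1, a zinc finger transcription factor gene of neuroendocrine and neuronal differentiation, fell from 391.3 ± 56.6 to 151.8 ± 7.62 normalized counts (log2 fold change -1.36, edgeR adjusted p = 0.000114), whereas Cnppd1 and Ttyh3 had log2 fold changes of -0.31 and -0.28 and were not called. For F2r they were Ighmbp2 (r = 0.995), the integrin gene Itgb4 (r = 0.977) and Cd109 (r = 0.973), and for Bdkrb2 Taf5l (r = 0.995), Alg10b (r = 0.989) and Midn (r = 0.988), none of them called. With 6 libraries and 13372 other genes searched, values of this size describe the libraries and were given no test.

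Most markers of the non-peptidergic nociceptor classes were called lower, as F2rl2 was, beside 2.56% of all genes tested. The study had already reported Mrgprd, Lpar3, Mrgpra3, Hrh1, Nppb, Sst, Il31ra and Osmr as lower in these data. The calls on these lists were thus largely known beforehand and are not independent of that report. The summed normalized counts of the 4 NP1 markers ranged from 7381 to 10485 in control and from 2744 to 3149 in Tlx3cko libraries, and those of the 5 NP3 markers from 1618 to 2144 and from 398.9 to 462.9. All 4 NP1 markers and 4 of the 5 NP3 markers were called lower, the exception being Nts (edgeR adjusted p = 0.74). The 3 NP2 markers summed to between 499.3 and 769.6 in control and between 406.8 and 535.1 in Tlx3cko libraries, ranges that overlap. Of these, 2 were called lower, and the remaining one, Mrgprx1, was at 191.3% of control and not called. No marker of these 3 lists was at 0 in all libraries. Fibroblast markers were also lower, with 3 of 5 called and sums from 4280 to 4791 in control and from 3312 to 3679 in Tlx3cko libraries. Satellite glia and Schwann cell markers had 0 of 5 called each, platelet markers 0 of 5 and endothelial markers 1 of 7, Pecam1, which was higher. Among the 6 markers of the Nav1.8 lineage, 1 was called lower and 3 higher. Of the 5 skeletal muscle markers Myh4 was called higher, and their sums ran from 88.5 to 1779 in control and from 1478 to 2776 in Tlx3cko libraries. The part of these cell types in the receptor levels was not tested.

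The list of 29 genes for proteases that can activate these receptors includes F3, tissue factor, which is not itself a protease. Of the 29 genes, 18 were tested and 6 had 0 counts in all libraries. Among those tested 2 were called lower and 0 higher (11.1%, beside 4.25% of all genes tested). The median log2 fold change of those tested was -0.84, beside -0.0036 for all genes tested. F2, Gzma and Klk8 reached the minimum of 10 counts only through the control libraries, so that they could hardly come out higher and weigh this median downwards. Klk8 is also 1 of the 2 called genes, so that the share called lower rests in part on this filter. Both called genes encode kallikrein-related serine proteases. Klk5 had 23.7, 17.9 and 33.5 normalized counts in control and 3.85, 5.25 and 1.97 in Tlx3cko replicates 1, 2 and 3 (log2 fold change -2.77, SE 0.57, edgeR adjusted p = 0.013). Klk8, also called neuropsin, went from 15.7 ± 5.92 to 2.05 ± 1.57 normalized counts (log2 fold change -2.84, edgeR adjusted p = 0.0462).

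Both calls rest on low counts. Klk5 was lost without control replicate 3 (adjusted p = 0.0823) or Tlx3cko replicate 3 (adjusted p = 0.0631), and Klk8 was lost when control replicate 2 or 3 or Tlx3cko replicate 2 or 3 was left out, with adjusted p of 0.122, 0.192, 0.16 and 0.173 (all by edgeR). With the sex term Klk5 kept its call and Klk8 lost it (edgeR adjusted p = 0.0874), and Klk8 also lost it with the replicate number as a block (edgeR adjusted p = 0.105). Genes of mast cell proteases and cathepsin S did not pass the threshold, at 26.3 (control) and 6.94 (Tlx3cko) normalized counts for the tryptase gene Tpsb2 and 83.5 and 40.5 for Ctss (edgeR adjusted p of 0.177 and 0.118). St14, a further protease gene of the list, was at 26.9 (control) and 7.9 (Tlx3cko) and just missed the threshold (edgeR adjusted p = 0.0538). Prss8 went the other way, at 24.8 and 35.6 (edgeR adjusted p = 0.677). The 6 mast cell markers summed to between 89.3 and 158.6 normalized counts in control and between 53.1 and 64.5 in Tlx3cko libraries, where Ms4a2 was called lower. Of these markers, Mcpt4, Tpsb2 and Cma1 are also on the protease list, so that the sum partly repeats their counts. The 4 keratinocyte markers summed to between 87.4 and 114.9 and between 64.5 and 87.9, where Krt5 was at 0 in all libraries. The part of these cells in the protease levels was not tested.

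The coagulation protease genes were close to absent. F7 had 0 counts in all libraries, and prothrombin, F2, had at most 6 counts in any library. Tissue factor, F3, which starts coagulation, measured 147.1 (control) and 238.7 (Tlx3cko) normalized counts (edgeR adjusted p = 0.233). Of the 12 tested inhibitors and cofactors of these proteases, 0 were called by edgeR, 0 by DESeq2 and 0 by limma-voom, while 3 had an unadjusted p under 0.05 from edgeR. Serpine2, the thrombin inhibitor protease nexin, measured 695.5 (control) and 875.8 (Tlx3cko) normalized counts (edgeR adjusted p = 0.164).

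On the list of kinin formation and breakdown, the called genes encode 2 peptidases of kinins and an inhibitor of plasma kallikrein. The kininogen genes Kng1 and Kng2 had at most 1 count in any library. Klk1, F11 and F12 had at most 2 counts in any library, and Klkb1 was matched to no row. None of these genes of kinin formation was tested. Of 12 genes tested in this list of 19, 2 were called lower and 1 higher (25%, beside 4.25% of all genes), with a median log2 fold change of -0.02. Cpn1, the catalytic subunit of carboxypeptidase N, which trims bradykinin to the B1 ligand, had 110.1, 125.7 and 110.1 normalized counts in control and 32.7, 24.9 and 28.5 in Tlx3cko replicates 1, 2 and 3. All Tlx3cko values lay far below the controls (log2 fold change -1.99, SE 0.23, edgeR adjusted p = 0.000203). Serping1, the inhibitor of plasma kallikrein, fell from 1523 ± 95.02 to 968.5 ± 140 normalized counts (log2 fold change -0.65, edgeR adjusted p = 0.00285). It moved in the direction of the fibroblast markers given above, and the part of fibroblasts in its level was not tested. Mme, the gene of neprilysin, a peptidase that degrades bradykinin, rose from 253.0 ± 92.8 to 604.3 ± 66.3 (log2 fold change 1.27, edgeR adjusted p = 0.00276). Each of the 3 stayed past the threshold in the 6 fits that left out 1 library. The kininases Ace and Ece1 had log2 fold changes of 0.14 and 0.08 and were not called.

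Downstream signalling genes changed in both directions. Of 30 tested, 4 were called lower and 3 higher (23.3%, beside 4.25% of all genes), with a median log2 fold change of -0.14. The study had already reported Plcb3 as lower in these data. Among the phospholipases C beta, Plcb3 fell from 13005 ± 556 to 8129 ± 552 normalized counts (log2 fold change -0.68, adjusted p = 0.000118) while Plcb1 rose from 363.5 ± 38.8 to 816.2 ± 61.0 (log2 fold change 1.17, adjusted p = 5.2e-05), both from edgeR.

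Of the kinases, Prkcd, the protein kinase C delta gene, fell to 52.9% of its control level (log2 fold change -0.92, edgeR adjusted p = 9.4e-06) and Prkca to 75.8%. Grk2, a kinase that switches off activated receptors, fell to 77.2% (log2 fold change -0.37), and Arrb1, which encodes a beta-arrestin that binds them, rose to 128.9% (log2 fold change 0.37). Prkca was lost without control replicate 3 (adjusted p = 0.052) or Tlx3cko replicate 3 (adjusted p = 0.0714), and Grk2 without Tlx3cko replicate 3 (adjusted p = 0.0661). Arrb1 kept its call in 1 of the 6 such fits, the one without control replicate 3 (adjusted p = 0.0108). With the sex term Grk2 and Arrb1 were not called (adjusted p of 0.15 and 0.597), and with the replicate number as a block Arrb1 was not called either (adjusted p = 0.0572), all from edgeR. The remaining called gene, named after its values were seen, was Itpr3, an inositol trisphosphate receptor gene (log2 fold change 0.37, edgeR adjusted p = 0.0462). Its call was lost without control replicate 2 or 3 or Tlx3cko replicate 2 or 3, and with the sex term (edgeR adjusted p = 0.357). The G protein genes Gnaq and Gna11 had log2 fold changes of -0.11 and -0.17 and were not called. Without overlap between the genotypes, Gna14, Gnai2 and Gna12 were lower (-0.30, -0.21 and -0.16) and Gnai1 was higher (0.27). None of them was called, with an edgeR adjusted p of 0.0506 for Gna14 and 0.0904 for Gnai1. Over all genes tested, 10.8% were lower and 8.87% higher without overlap.

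Ion channels that PAR and kinin receptors are known to sensitize or inhibit in nociceptors changed in both directions. Of 11 tested, 2 were called lower and 3 higher (45.5%, beside 4.25% of all genes), with a median log2 fold change of 0.08. The study had reported Trpv1 as higher and P2rx3 as lower in these DRGs, and Nav1.9 as dependent on Tlx3 in earlier work. The list was made with such results known, so that its share of called genes was partly fixed beforehand. Trpv1, the capsaicin receptor, reached 231.0% of its control level (log2 fold change 1.21, edgeR adjusted p = 1.4e-05). The mean reads printed by the study lie near the 2237 normalized counts found here in control. Its value for Tlx3cko lies below the 5168 found here, so that its rise is smaller. The cause of this difference was not tested. Scn10a, the gene of Nav1.8, rose to 134.9%, and the M-current subunit gene Kcnq3 to 130.4%. Scn11a, the gene of Nav1.9, fell to 57.7% and the ATP receptor gene P2rx3 to 50.4% of control. Kcnq3 was lost when control replicate 2 or 3 or Tlx3cko replicate 2 or 3 was left out, reaching an adjusted p of 0.165 at most, with the sex term (edgeR adjusted p = 0.201) and with the replicate number as a block (edgeR adjusted p = 0.0785). Trpa1, a channel that PAR2 and B2 signalling sensitize, measured 807.9 (control) and 627.2 (Tlx3cko) normalized counts (log2 fold change -0.36, edgeR adjusted p = 0.333).

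**Figure D4:**
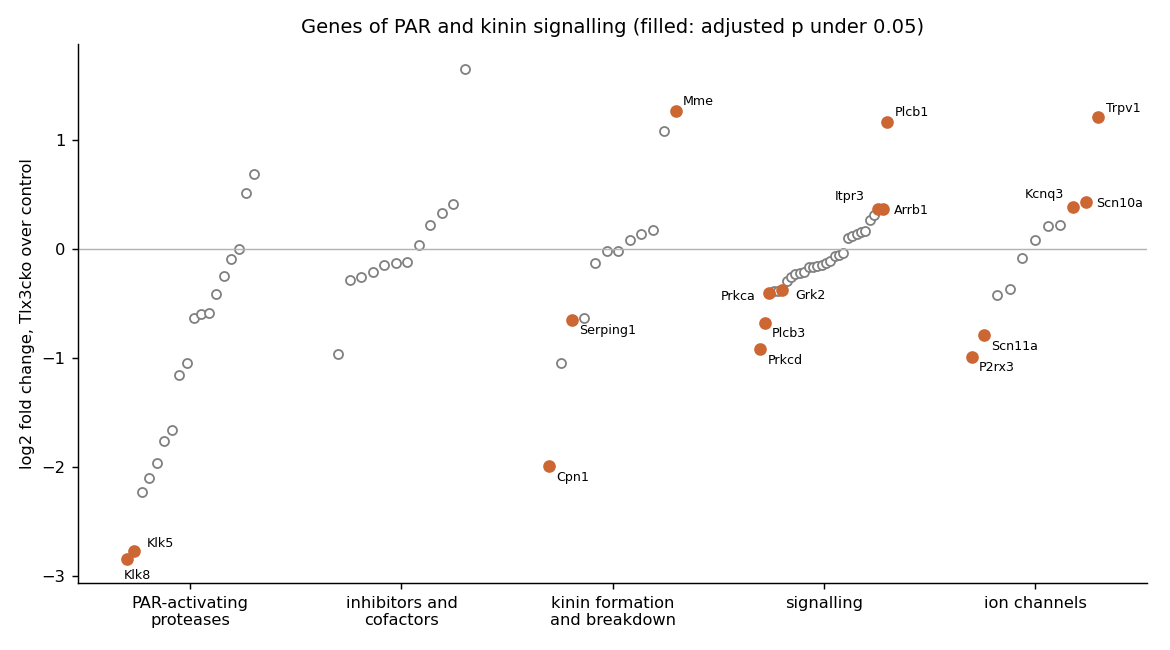
Log2 fold change of Tlx3cko over control (vertical axis) for every tested gene of the 5 pathway lists (horizontal axis), ordered by value within a list, where filled and labelled points passed an adjusted p under 0.05. Plcb1, Mme and Trpv1 lie above 1, and the called proteases Klk5 and Klk8 lie below -2.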

How the data were processed

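DRG libraries of 3 control and 3 Tlx3cko mice were compared. The authors deposited raw read counts per gene. The submitters' processing notes name STAR 2.5.2a and mm10, while the counting program, annotation and use of strand are not given in the sources used here. Rows were matched to GENCODE M21 (GRCm38). Loci outside the annotation (208 rows) have no gene name but stayed in library totals and tests.

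The edgeR quasi-likelihood test (version 4.0.16; glmQLFit, glmQLFTest; R 4.3.3) was run with TMM scaling on the 20006 genes that reached 10 counts in all libraries together, with Benjamini-Hochberg adjusted p under 0.05 as threshold. Standard errors were derived from F. DESeq2 1.42.0, limma-voom (limma 3.58.1), other normalizations and filters, a replicate block, a sex term and fits without each library were alternatives. The pipeline was tested on simulated data. Bounds from counts of 0 cover counting error in the Tlx3cko libraries only and not the spread of the controls.

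Named genes are the 6 receptors, called genes of the pathway lists (at most 6 per list by adjusted p), Tlx3, Plcb3, Trpv1, Mrgprx1, neighbours within 250 kb and the 3 genes of most similar pattern per receptor. Other list genes were named after their values were seen, to show genes that were not called. Members and lists were chosen with earlier results of these data known. No transcript of another gene shared 100 bases at 98% identity with a receptor transcript (blastn 2.17.0+). The methods give n = 3 per genotype without saying whether a library is 1 mouse, so p-values measure the spread between libraries. Replicates of a genotype differed by more than sampling noise (chi-square per degree of freedom from 4.46 to 10.7).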

Additional observations from a re-analysis of the deposited data

How the results depend on the processing

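The count of genes called, 851, became 1529 without a filter on low counts (858 lower, 671 higher) and 487 with a sex term (334 lower, 153 higher); with each library left out it ranged from 488 to 938 (310 to 530 lower, 175 to 408 higher). It was 530 without control replicate 2, 488 without Tlx3cko replicate 2 and 512 without Tlx3cko replicate 3. For F2rl1 the call was lost with limma-voom (log2 fold change -4.10, adjusted p = 0.245) and with the sex term (-3.78), and with each library left out the fitted value ranged from -7.58 to -6.30. These fitted values depend on the prior count, since all Tlx3cko counts are 0. With filterByExpr F2rl1 was not tested. F2rl2 lost its call with the sex term alone (-0.44) and ranged from -0.74 to -0.59 with each library left out. F2r turned to 0.23 with the sex term and ranged from -0.24 to 0.11, above 0 without control replicate 1. Calls among the PAR-activating proteases were 1 with limma-voom, 6 without a filter, 1 with the sex term and from 0 (without Tlx3cko replicate 3) to 2 with a library left out. Those among inhibitors and cofactors went from 0 to 1 (without control replicate 3), and those among signalling genes from 3 (without Tlx3cko replicate 3) to 6. The cause of these shifts was not tested. The fits of 19 other named genes gave 265 alternative values, of which 224 kept direction and side of the threshold, 37 lost the call, 4 gained it (all Mrgprx1) and 0 reversed. Same-numbered libraries did not deviate together (correlations -0.067, -0.014 and -0.058) and no pairing was assumed; with the replicate number as a block 770 genes were called, and F2rl1 and F2rl2 kept their calls (log2 fold changes -7.08 and -0.64), while Klk8, Arrb1, Kcnq3 and Itpr3 lost theirs and Mrgprx1 gained one.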
